A study of Mus musculus with 6 samples.

Results

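The genes described here encode proteoglycans, proteins that carry long sulfated sugar chains on the cell surface or in the matrix around the cell. They were chosen by name and comprise 9 genes: the syndecans Sdc1, Sdc2, Sdc3 and Sdc4, the glypicans Gpc1, Gpc4 and Gpc6, and the chondroitin sulfate proteoglycans Vcan and Cspg5. The deposited table lists 8 of them among 12151 genes, and Gpc4 is not listed, so no level is given for it.

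Syndecans are transmembrane proteins and glypicans are tied to the membrane by a lipid anchor. The heparan sulfate chains of both bind growth factors such as the FGFs, and an FGF signals through its receptor with heparan sulfate, or added heparin, as a cofactor. Versican, the product of Vcan, is a large hyaluronan-binding proteoglycan of the brain matrix and of glioma, and Cspg5 encodes neuroglycan C, a transmembrane chondroitin sulfate proteoglycan of the nervous system.

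The libraries came from mouse glioma cells kept in culture. The mNS libraries, replicates 1 to 3 at passages 72, 77 and 85, are labelled as stem-like glioma cells (GSC), which grew as neurospheres in DMEM/F12 with B-27, EGF, basic FGF and heparin. The GL261 libraries, replicates 1 to 3 at passages 17, 33 and 34, are labelled as differentiated glioma cells (GDC), which grew in DMEM with fetal bovine serum; the passage field of the third says 33 and its title 34. GL261 is an established glioma line, and the labels do not say from which cells the neurospheres were made. Cell form, medium (with or without heparin) and passage range all differ between mNS and GL261, and their parts in a difference cannot be told apart. The labels name no separate cultures beyond the passages, so a p-value reflects only how far these libraries vary, which may be technical.

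Between 12534422 and 14225175 reads per library fell in listed genes. Levels are in CPM, read counts scaled to library sizes that were adjusted by TMM factors, where a single read counts for 0.0708 to 0.0773 CPM. The columns do not share a common sum. The summed level of 8 glial and glioma markers was 5184 to 5823 CPM in mNS and 8648 to 9697 CPM in GL261, most of it Vim (3659 CPM on average in mNS, 7257 CPM in GL261) and Nes (955 CPM in mNS, 1518 CPM in GL261). S100b averaged 52.1 CPM in mNS and 224.6 CPM in GL261, and Gfap, the astrocyte filament gene, was at most 0.226 CPM in mNS and 5.06 CPM in GL261. Other genes of that list ran the opposite way: Olig2 averaged 437 CPM in mNS and 8.54 CPM in GL261, Fabp7 averaged 89.8 CPM in mNS and 3.24 CPM in GL261, and Slc1a3 averaged 89.5 CPM in mNS and 29.1 CPM in GL261. Sox2 averaged 184 CPM in mNS and 181 CPM in GL261. None of 6 endothelial markers was listed, nor were 5 of 8 microglial markers, among them Ptprc and Aif1. The 3 listed microglial markers summed to 8.50 to 11.2 CPM in mNS and 4.62 to 6.26 CPM in GL261, of which Cd68 averaged 8.09 CPM in mNS and 2.95 CPM in GL261, Tmem119 averaged 1.64 CPM in mNS and 0.640 CPM in GL261, and Csf1r averaged 0.0488 CPM in mNS and 1.68 CPM in GL261. Of 8 fibroblast and pericyte markers 4 were listed, with a sum of 169 to 327 CPM in mNS and 520 to 643 CPM in GL261. Most of the mNS sum was Col3a1 (146 CPM on average in mNS, 230 CPM in GL261) and Cspg4 (85.6 CPM in mNS, 224 CPM in GL261). Cspg4 is also a gene of oligodendrocyte progenitors. Pdgfrb averaged 0.123 CPM in mNS and 2.41 CPM in GL261. The defining fibroblast genes Dcn and Lum were not listed, and Col1a1 averaged 6.18 ± 2.03 CPM in mNS and 127 ± 9.75 CPM in GL261 (SD, n = 3 each). Of 6 neuronal markers 2 were listed, with a sum of 12.9 to 18.3 CPM in mNS and 224 to 248 CPM in GL261; Tubb3 averaged 8.85 CPM in mNS and 234 CPM in GL261, and Syt1 averaged 6.38 CPM in mNS and 0.767 CPM in GL261. Whether the marker differences have a part in those of the proteoglycans was not tested. In such bulk libraries, fewer cells of a type and less RNA per cell cannot be told apart.

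The proteoglycan genes did not move together. In mNS, 4 of the 8 listed genes were higher (Sdc2, Sdc3, Vcan and Cspg5), 3 were lower (Sdc4, Gpc1 and Gpc6), and Sdc1 did not pass the test. Each gene's log2(CPM + 1) values were tested in limma together with those of all 12006 genes that averaged 1 CPM or more, and those with a Benjamini-Hochberg adjusted p under 0.05 are called here. The share called over all tested genes was 64.3% (32.2% higher in mNS, 32.1% lower), so that 7 called genes among 8 is read against a background in which most genes were called. In 7 of the 8 genes no mNS library overlapped the GL261 range, which held for 69.9% of all tested genes. The median difference over the 8 genes was 0.27 on the log2(CPM + 1) scale, mNS minus GL261, and that over all tested genes was -0.0027. A difference of at least 1 in size was called for 5 of the 8, against 19.7% of all tested genes. Log2 differences use log2(CPM + 1) throughout and so come out too small for genes at low levels, and folds are ratios of group means of CPM.

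**Figure D1:**
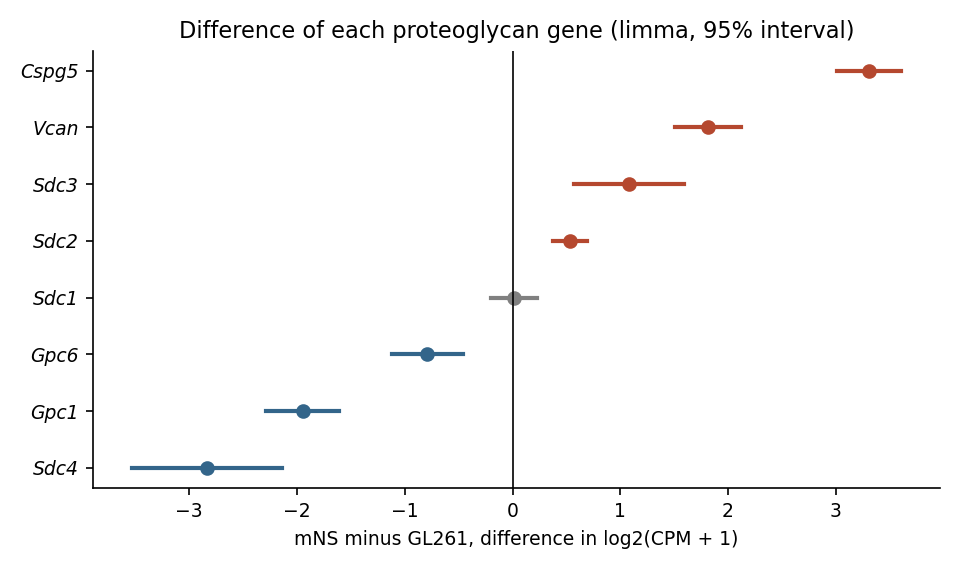
Difference of each listed proteoglycan gene between mNS and GL261 on the log2(CPM + 1) scale (x axis), one gene per row; points are limma estimates over 3 libraries per group and bars their 95% intervals. Cspg5, at 3.31, and Sdc4, at -2.84, mark the ends of the range, and the interval of Sdc1 (grey) spans 0.

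Sdc4 (chromosome 2, 164424247 to 164443887, minus strand, in GRCm38) had the largest fall of the 8 genes. It encodes syndecan-4, which sits in focal adhesions, binds fibronectin through its chains and activates protein kinase C alpha through its tail. Its levels were 8.68, 20.4 and 20.7 CPM in mNS replicates 1 to 3, against 89.2, 136 and 133 CPM in GL261 replicates 1 to 3. Each mNS value lay below each GL261 value, and within each group the earliest passage, 72 in mNS and 17 in GL261, was the low one. The group means were 16.6 ± 6.87 CPM in mNS and 119 ± 25.9 CPM in GL261, 7.17-fold lower in mNS (log2 difference -2.84 ± 0.30 SE, limma adjusted p = 5.86e-05). Between replicates the highest mNS value was 2.39 times the lowest, the widest ratio within a group among the 8 genes. The fall rests on 672 reads in mNS and 4847 reads in GL261.

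Sdc3 and Sdc2 went the other way. Sdc3 (chromosome 4, 130792537 to 130826319, plus strand) encodes syndecan-3, a syndecan of the nervous system, and stood at 27.3, 28.3 and 34.4 CPM in mNS, against 8.95, 15.6 and 17.9 CPM in GL261. The lowest mNS library lay above the highest GL261 library, while the highest GL261 value was 2.003 times the lowest, that of passage 17. The means differed 2.12-fold (log2 difference 1.08 ± 0.22 SE, limma adjusted p = 0.00271). Antisense transcripts of GENCODE overlap 6.93% and 0.801% of the exon sequence of Sdc3, and the sources used here do not say whether reads were counted by strand.

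Sdc2 (chromosome 15, 32920723 to 33034935, plus strand) encodes syndecan-2, which is known from mesenchymal cells and from the dendritic spines of neurons. Its levels were 70.5, 76.2 and 76.3 CPM in mNS, against 53.3, 49.9 and 50.3 CPM in GL261. The groups did not overlap, and the libraries of each lay close together. The difference was the smallest of the called ones, 1.45-fold (log2 difference 0.53 ± 0.07 SE, limma adjusted p = 0.000199).

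Sdc1 (chromosome 12, 8771323 to 8793715, plus strand), which encodes syndecan-1, the syndecan of epithelia and plasma cells, showed no detectable difference. It measured 79.1, 92.2 and 101 CPM in mNS, against 93.6, 88.3 and 87.4 CPM in GL261. The GL261 values lay within the range of the mNS values. The log2 difference was 0.01 ± 0.09 SE (limma adjusted p = 0.933), and its 95% interval corresponds to a ratio of mNS to GL261 between 0.869 and 1.17. A larger change than that lies outside the interval, but the test does not show that the levels were equal.

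**Figure D2:**
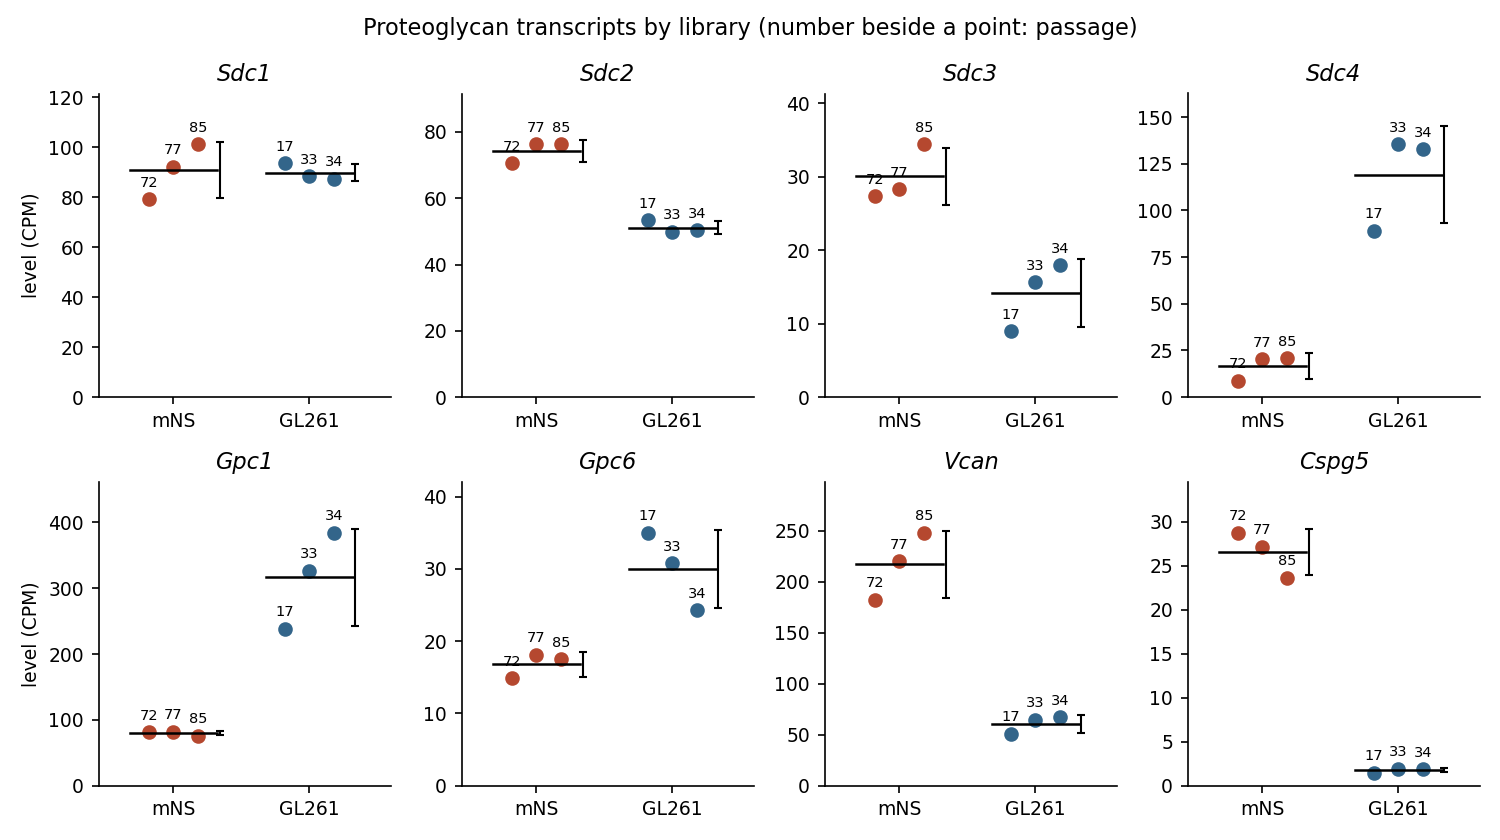
Level in CPM (y axis, from 0) of each listed proteoglycan gene in the 3 mNS and 3 GL261 libraries; points are libraries with their passage, lines group means and bars ± 1 SD. The groups overlap for Sdc1, and in the other 7 genes they do not; Sdc4 spans 8.68 to 20.7 CPM in mNS and 89.2 to 136 CPM in GL261.

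The make-up of the syndecan transcripts was also compared. Levels of different genes were made comparable by dividing CPM by the length of each gene's exons in GENCODE, in kb, and each gene was given as a share of the sum of the 4 syndecans. Sdc4 held 6.99%, 13.7% and 13.1% of the sum in mNS, against 46.0%, 57.1% and 56.5% in GL261. It was the most abundant syndecan in every GL261 library. Sdc1 held 42.2% ± 0.803 in mNS and 27.3% ± 4.25 in GL261, and Sdc2 held 37.6% ± 3.15 in mNS and 16.8% ± 2.61 in GL261 (SD, n = 3 each). Sdc3 was the least abundant syndecan in GL261, at 2.67% ± 0.651, while in mNS it held 8.89% ± 0.716. For each of these shares the groups did not overlap, and the exact two-sided permutation test gave p = 0.1 (adjusted p = 0.1 over the 5 shares tested, that of Gpc1 included), the smallest p that 3 libraries against 3 allow. A share also moves with the other genes of the sum. The sum itself averaged 56.5 ± 6.93 CPM per kb in mNS and 87.2 ± 9.54 CPM per kb in GL261 (exact permutation p = 0.1, two-sided).

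**Figure D3:**
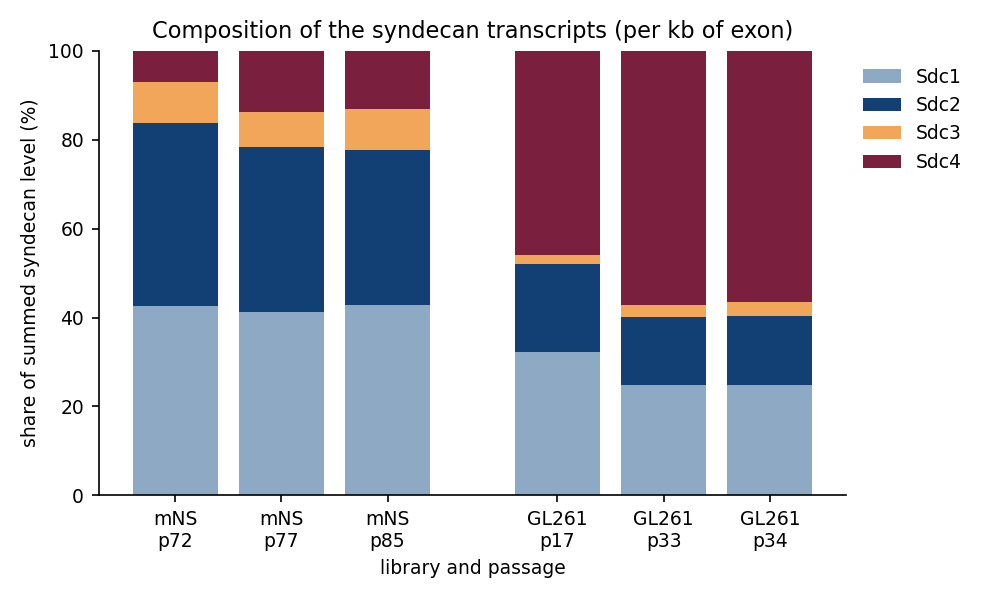
Share of each syndecan gene in the summed syndecan level per kb of exon (y axis, %), one stacked bar per library, with its passage. Sdc4 takes 6.99% to 13.7% of the bar in mNS and 46.0% to 57.1% in GL261.

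Promoter windows are shown for the syndecans whose levels fell, rose or showed no detectable difference, and for Vcan, so that the sequences at their start sites can be set side by side. They run from 250 bases before to 50 bases after the RefSeq start site in GRCm38.p6 (Sdc4 at chr2:164443139-164443438, minus strand; Sdc3 at chr4:130792287-130792586, plus strand; Sdc1 at chr12:8771146-8771445, plus strand; Vcan at chr13:89742463-89742762, minus strand). Of the 9 genes 5 matched the RefSeq promoter table, these and Gpc4. Capitals mark the GC box GGGCGG, the TATA box TATAA and the CCAAT box CCAAT on either strand, 5′ to 3′.
Sdc4: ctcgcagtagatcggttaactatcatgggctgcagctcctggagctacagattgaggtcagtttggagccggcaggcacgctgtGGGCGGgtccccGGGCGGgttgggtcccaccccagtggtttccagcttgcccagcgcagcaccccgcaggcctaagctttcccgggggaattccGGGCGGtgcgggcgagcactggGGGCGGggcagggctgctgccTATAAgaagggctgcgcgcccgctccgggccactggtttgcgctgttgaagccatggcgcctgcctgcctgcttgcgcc
Sdc3: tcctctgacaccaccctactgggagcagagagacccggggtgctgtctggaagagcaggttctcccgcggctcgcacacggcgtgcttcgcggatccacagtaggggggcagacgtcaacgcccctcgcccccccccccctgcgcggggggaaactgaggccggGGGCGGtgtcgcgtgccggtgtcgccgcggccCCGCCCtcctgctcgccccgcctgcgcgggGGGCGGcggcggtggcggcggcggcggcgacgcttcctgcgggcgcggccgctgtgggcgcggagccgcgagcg
Sdc1: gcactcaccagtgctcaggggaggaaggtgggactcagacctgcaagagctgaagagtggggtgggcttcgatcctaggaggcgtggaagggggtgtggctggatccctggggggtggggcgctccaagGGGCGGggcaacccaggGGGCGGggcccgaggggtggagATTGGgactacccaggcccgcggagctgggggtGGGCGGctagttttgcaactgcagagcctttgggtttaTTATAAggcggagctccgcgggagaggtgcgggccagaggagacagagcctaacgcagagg
Vcan: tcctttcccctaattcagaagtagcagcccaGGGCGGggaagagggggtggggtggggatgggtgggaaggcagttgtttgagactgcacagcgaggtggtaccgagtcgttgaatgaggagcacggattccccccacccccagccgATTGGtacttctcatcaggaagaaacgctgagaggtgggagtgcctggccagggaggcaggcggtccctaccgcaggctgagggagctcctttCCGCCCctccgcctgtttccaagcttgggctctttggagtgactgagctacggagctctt
The windows differed in their core elements. Sdc4, which fell, holds 4 GC boxes and 1 TATA box at -29, and Sdc1 holds 3 GC boxes, 1 CCAAT box and a TATA sequence that reads on both strands, so that its 2 matches overlap. Sdc3 holds 3 GC boxes and neither of the other elements, with a GC content of 77.7% and 44 CG pairs, the highest of the 4. Vcan holds 2 GC boxes and 1 CCAAT box. Over all 32851 promoter windows of the table, 35.7% hold a GC box, 24.9% TATAA and 37.4% CCAAT, and the median GC content is 52.7%. The letters CCGGAAG (ETS), TGANTCA (AP-1), GGAATG (TEAD) and CACGTG (E-box) were searched on both strands and matched none of the 4 windows; they occur in 8.86%, 7.81%, 14.7% and 7.15% of all windows. A match is a description of letters, and nothing about a factor follows from it.

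Both listed glypicans were lower in mNS. Gpc1 (chromosome 1, 92831645 to 92860779, plus strand) encodes glypican-1, a coreceptor of FGFs that is known in glioma cells, and its levels were 81.3, 82.3 and 75.9 CPM in mNS, against 239, 327 and 385 CPM in GL261. The mNS libraries lay within 1.08-fold of each other, and the GL261 libraries spread 1.61-fold with passage 17 lowest. Gpc1 averaged 79.8 ± 3.43 CPM in mNS and 317 ± 73.4 CPM in GL261, 3.97-fold lower in mNS (log2 difference -1.95 ± 0.15 SE, limma adjusted p = 7.84e-06). The opposite-strand gene Ankmy1, which is not listed in the table, overlaps 18.9% of the exon sequence of Gpc1.

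Gpc6 (chromosome 14, 116925315 to 117976544, plus strand), which encodes glypican-6, stood at 14.9, 18.1 and 17.5 CPM in mNS, against 35.0, 30.8 and 24.3 CPM in GL261. Here passage 17 was the highest GL261 library, the reverse of Gpc1, and all GL261 values lay above all mNS values. The means differed 1.79-fold, lower in mNS (log2 difference -0.79 ± 0.14 SE, limma adjusted p = 0.00129). Per kb of exon, Gpc1 made up 85.5% ± 1.48 of the sum of both glypicans in mNS and 92.5% ± 2.88 in GL261, and the sum was 18.1 ± 0.664 CPM per kb in mNS and 66.1 ± 13.4 CPM per kb in GL261 (exact two-sided permutation p = 0.1 each, the smallest possible).

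The chondroitin sulfate proteoglycans were both higher in mNS. Vcan (chromosome 13, 89655312 to 89742509, minus strand) measured 183, 220 and 248 CPM in mNS, against 50.9, 64.6 and 67.1 CPM in GL261. The lowest mNS library was well above the highest GL261 library, with spreads of 1.36-fold within mNS and 1.32-fold within GL261. Vcan averaged 217 ± 33.0 CPM in mNS and 60.9 ± 8.71 CPM in GL261 (3.57-fold; log2 difference 1.82 ± 0.13 SE, limma adjusted p = 6.06e-06). Versican has splice forms with different numbers of chain attachment sites, which a level per gene does not separate.

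Cspg5 (chromosome 9, 110243783 to 110262576, plus strand) had the largest fold of the 8 genes. It measured 28.8, 27.1 and 23.6 CPM in mNS, against 1.49, 1.94 and 1.88 CPM in GL261. In reads, this was 1066 in mNS and 72 in GL261, with 20 to 26 reads in each GL261 library. The means, 26.5 ± 2.61 CPM in mNS and 1.77 ± 0.245 CPM in GL261, differed 15.0-fold. The summed reads, scaled to library size as in the CPM, gave a ratio of 14.9 with a 95% interval of 11.8 to 19.2 (Clopper-Pearson, counting error only). The log2 difference was 3.31 ± 0.13 SE (limma adjusted p = 1.43e-07).

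The order of the levels per kb changed between the groups. In mNS the order was Sdc1 (23.9 CPM per kb), Sdc2 (21.1), Gpc1 (15.5), Vcan (15.0), Sdc4 (6.52), Sdc3 (5.01), Cspg5 (2.63) and Gpc6 (2.62). Sdc1 and Sdc2 overlapped between libraries there, as did Gpc1 and Vcan, Sdc4 and Sdc3, and Cspg5 and Gpc6. In GL261 the order was Gpc1 (61.4 CPM per kb), Sdc4 (46.8), Sdc1 (23.6), Sdc2 (14.5), Gpc6 (4.67), Vcan (4.21), Sdc3 (2.36) and Cspg5 (0.176), and only Gpc1 with Sdc4 and Gpc6 with Vcan overlapped as neighbours. Among 11432 genes with a length, the GL261 level of Gpc1 lay above 93.2% and that of Sdc4 above 90.2%; in mNS the same genes lay above 69.3% and 44.7%. Cspg5 lay above 24.0% of these genes in mNS and 3.82% in GL261.

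**Figure D4:**
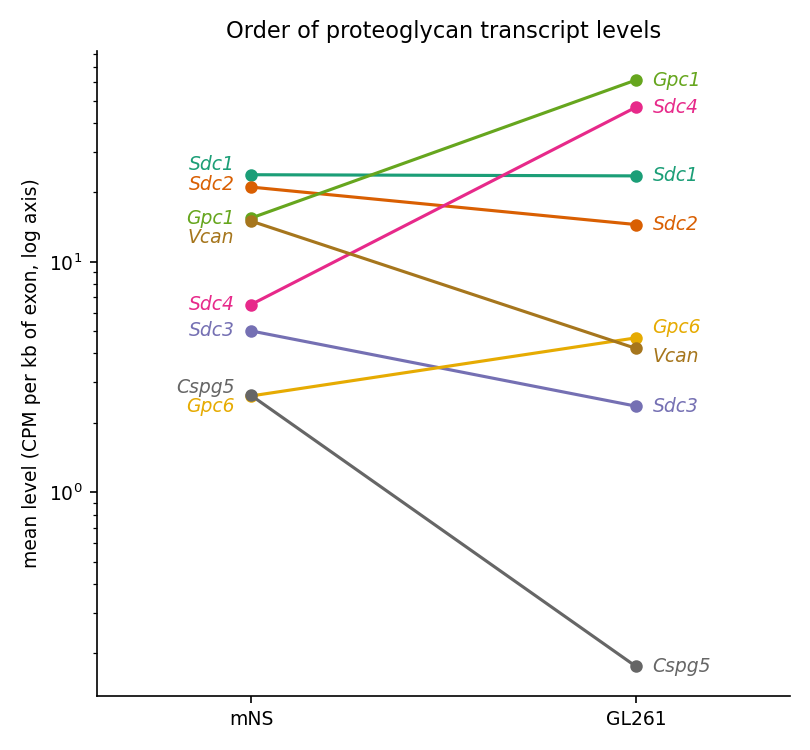
Mean level per kb of exon (y axis, log scale) of each listed proteoglycan gene in mNS and in GL261, with a line joining the means of each gene. Gpc1 and Sdc4 are at 15.5 and 6.52 CPM per kb in mNS and at 61.4 and 46.8 CPM per kb in GL261, and Sdc1 is nearly level.

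For each gene, the most alike profiles over the 6 libraries were sought among 9046 other genes that averaged 10 CPM or more, as the root mean square difference of log2(CPM + 1) values centred on each gene's mean. Nearest to Sdc4 was Elk3, an ETS family repressor, at a difference of 0.184, with 10.0, 19.0 and 20.5 CPM in mNS and 114, 123 and 121 CPM in GL261. Elk3 too was lowest at passage 72 within mNS. Nearest to Cspg5 was Rcan2, a regulator of calcineurin (0.127), and nearest to Vcan was Gng11, a G protein gamma subunit (0.109). Gpc1 was most like Il27ra, a receptor for interleukin-27 (0.0696), and Sdc2 most like Rab3a, a GTPase of secretory vesicles (0.0165). The libraries fall into 2 groups, and most of each likeness is the difference between them.

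Other proteoglycan core proteins also split. Of 35 such genes 14 were in the table and 13 were tested, of which 4 rose and 8 fell in mNS (median log2 difference -0.71), against 32.2% and 32.1% of all tested genes. Bcan, which encodes brevican, a brain relative of versican, averaged 235 ± 82.2 CPM in mNS and 22.7 ± 2.40 CPM in GL261 (10.3-fold higher in mNS). Ncan, for neurocan, another brain relative, averaged 6.58 CPM in mNS and 8.50 CPM in GL261 and was not called (limma adjusted p = 0.0955). The receptor phosphatase gene Ptprz1, a chondroitin sulfate carrier, rose by a log2 difference of 6.37. The other risers were Aplp2 (1.25), a relative of the amyloid precursor, and Smoc1 (1.08), which lost its call without mNS replicate 1 (adjusted p = 0.0692) and in DESeq2 (0.0604). Acan, the cartilage relative of versican, had 1 read in mNS and 1485 in GL261. Scaled to library size as in the CPM, the ratio of GL261 to mNS was 1473, with a 95% counting interval of 264 to 58213. Basement membrane heparan sulfate carriers fell: Hspg2 (perlecan) averaged 27.6 ± 1.92 CPM in mNS and 257 ± 46.5 CPM in GL261 (9.29-fold lower), Agrn (agrin) fell 2.61-fold and Col18a1 22.5-fold, or 34.7-fold without mNS replicate 1. Nrp1, a semaphorin coreceptor that can carry a chain, fell by 7.62 on the log2 scale, and Cspg4 (NG2), the surface proteoglycan of oligodendrocyte progenitors, fell 2.62-fold. Bcan, Ncan, Aplp2, Smoc1, Hspg2, Agrn and Cspg4 were picked out after their values were seen.

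Genes that build the sugar chains were called in both directions. Of 22 tested genes of heparan sulfate synthesis 12 fell and 5 rose (median log2 difference -0.39), 77.3% called against 64.3% of all tested genes, of which 32.1% fell and 32.2% rose. Papss2, which makes the sulfate donor, averaged 0.699 ± 0.637 CPM in mNS and 83.2 ± 30.4 CPM in GL261 (119-fold lower, or 251-fold without mNS replicate 1). Papss1, which makes the same donor, averaged 125 CPM in mNS and 226 CPM in GL261 (log2 difference -0.85). Ugdh, which makes the UDP-glucuronate for the chains, fell 4.30-fold. The polymerase partners parted: Ext1 averaged 71.5 ± 3.25 CPM in mNS and 90.8 ± 6.68 CPM in GL261, whereas Ext2 averaged 105 ± 2.74 CPM in mNS and 60.9 ± 4.16 CPM in GL261. Ndst1, the N-deacetylase and N-sulfotransferase that starts chain modification, fell 1.80-fold, while the glucuronyl epimerase gene Glce rose 5.91-fold and Acpl2 (the xylose phosphatase Pxylp1) 5.76-fold. The remaining risers were Xylt2 (log2 difference 0.54), a xylosyltransferase that starts the linker, and the 6-O-sulfotransferase gene Hs6st1 (0.35). Xylt1, the other xylosyltransferase gene of the list, fell (-0.76). Of 13 tested genes of chondroitin and dermatan sulfate synthesis 7 fell and 4 rose (median -0.40; 84.6% called, 64.3% over all tested genes). The polymerase genes Chsy3 and Chsy1 fell 17.9-fold and 2.79-fold and the dermatan epimerase gene Dse 2.93-fold; the sulfotransferase gene Ust rose 2.75-fold, followed by Chst3 (log2 difference 0.60), Dsel (0.54) and Csgalnact1 (0.98), which was not called when any mNS library was left out (limma adjusted p between 0.0582 and 0.0819) or in edgeR's quasi-likelihood test (adjusted p = 0.0570). Other sulfotransferase genes of the chondroitin list fell, Chst12 (log2 difference -1.36) and Chst11 (-0.50, limma adjusted p = 0.0201), and Chst14 (-0.24) was not called. In these lists Papss1, Ext1, Ext2, Ndst1, Xylt1, Xylt2, Hs6st1, Chst3, Chst11, Chst12, Chst14, Dsel and Csgalnact1 were chosen after their values were seen.

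Enzymes that trim chains or cut core proteins moved in both directions. Of 17 tested genes of trimming and breakdown 9 fell and 4 rose (median log2 difference -0.26), 76.5% called beside 64.3% over all tested genes. The hyaluronidase gene Hyal1 fell 5.81-fold, the cell surface hyaluronidase gene Tmem2 2.51-fold and the heparanase gene Hpse 2.51-fold, while the lysosomal genes Ids, Arsb and Glb1 rose 1.62-fold, 1.62-fold and 1.34-fold. The extracellular 6-O-sulfatase gene Sulf2 rose 1.29-fold and lost its call without mNS replicate 2 or 3 or GL261 replicate 1 or 2 (limma adjusted p between 0.0507 and 0.124). Of 18 tested genes of sheddases, proteases and their inhibitors 8 fell and 7 rose (median -0.04), or 83.3% called against the same 64.3%. Of the ADAMTS proteases in this list, which cut versican and its relatives, 3 rose, Adamts5 fell (log2 difference -0.77) and Adamts20 (0.09) was not called. Adamts1 averaged 2788 ± 418 CPM in mNS and 333 ± 97.1 CPM in GL261, Adamts9 averaged 379 ± 28.4 CPM in mNS and 9.87 ± 2.88 CPM in GL261, and Adamts4 rose 2.90-fold. The inhibitor genes Timp2, Timp3 and Timp1 fell 10.4-fold, 5.22-fold and 3.94-fold, and Thbs1, a matrix protein that binds syndecans, 5.87-fold. Of the proteases outside the ADAMTS group, Adam10 (log2 difference -0.53), Adam17 (-0.49) and Mmp14 (-0.56) fell. Mmp16 (1.96), Furin (0.73), Mmp15 (0.40) and Adam9 (0.27) rose, and Mmp2 and Adam12 were not called. Arsb, Glb1, Sulf2, Adamts4, Adamts5, Adamts20, Timp1, Timp3 and the proteases outside the ADAMTS group were singled out once their values were known.

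Among proteins that bind syndecan tails or link them to trafficking and adhesion, 10 of 18 tested genes fell and 4 rose (median log2 difference -0.26). The share called was 77.8%, against 64.3% of all tested genes (32.1% lower, 32.2% higher). Prkca, the kinase that the tail of syndecan-4 activates, averaged 22.6 ± 3.11 CPM in mNS and 103 ± 15.7 CPM in GL261 (4.55-fold lower), and the actin crosslinkers Actn1 and Actn4 fell 11.9-fold and 4.02-fold. Cask, a PDZ scaffold that binds the C terminus of syndecans, averaged 30.4 ± 0.586 CPM in mNS and 0.912 ± 0.314 CPM in GL261, with 37 reads in GL261. The other risers were the scaffold gene Magi1 (log2 difference 1.96) and the membrane linkers Msn (0.44) and Rdx (0.25); Rdx lost its call when any library but mNS replicate 3 was left out (limma adjusted p between 0.0532 and 0.119). Sdcbp, which encodes syntenin, fell 1.19-fold, and was not called with columns at a common sum or under quantile normalisation (limma adjusted p = 0.0514 and 0.101). Magi1, Msn, Rdx and Sdcbp were chosen after their values were seen.

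Of 17 tested heparin-binding ligands and FGF receptors 7 rose and 6 fell (median log2 difference 0.08), 76.5% called where all tested genes gave 64.3%. Fgfr1 averaged 58.4 ± 3.03 CPM in mNS and 25.2 ± 2.94 CPM in GL261, while Fgfr3 fell by 8.41 on the log2 scale, a ratio of 514 that became 873 when mNS replicate 1 was left out. The ligand gene Fgf2 had 3 reads in mNS and 104 in GL261. Scaled to library size as in the CPM, the reads gave a ratio of GL261 to mNS of 34.4 (95% interval from counting error alone, 11.4 to 169). The ratio of mean CPM in GL261 to that in mNS was 33.4, and 67.9 without mNS replicate 2. The netrin gene Ntn1 rose by 4.56 on the log2 scale and the semaphorin gene Sema5a rose 2.76-fold, while Pdgfa and Hbegf fell 3.68-fold and 2.77-fold; the ratio of means for Ntn1 was 77.7 and, without GL261 replicate 3, 144. The ligand gene Fgf7 went the other way from Fgf2, at 3.76 CPM in mNS and 0.664 CPM in GL261 (log2 difference 1.52). Fgfrl1, at 184 CPM in mNS and 205 CPM in GL261, was not called. Fgfr1, Fgfrl1, Fgf2, Fgf7 and Hbegf were singled out once their values were known.

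Partners of versican and hyaluronan completed the lists, with 11 of 20 tested genes falling and 6 rising (median log2 difference -0.59); over all tested genes 32.1% fell and 32.2% rose. Has2, a hyaluronan synthase, averaged 99.7 ± 24.9 CPM in mNS and 382 ± 63.4 CPM in GL261. The link protein gene Hapln1, whose product ties versican to hyaluronan, averaged 3.67 ± 0.248 CPM in mNS and 0.198 ± 0.0879 CPM in GL261, and Fbln1, a versican-binding fibulin, averaged 67.0 ± 4.98 CPM in mNS and 7.44 ± 3.21 CPM in GL261. The tenascins that lectican proteoglycans bind rose, Tnc by 6.76 and Tnr by 2.87 on the log2 scale (for Tnr a ratio of means of 62.8, or 204 without GL261 replicate 3), and so did the adhesion gene Cntn1 (8.67), while Fn1 (-8.52) and L1cam (-5.05) fell. Of the other genes of this list, Fbn1 fell (8.23 CPM in mNS, 99.9 CPM in GL261, log2 difference -3.45), as did Tnfaip6 (-0.80). Fbn2 (0.35) was not called. The GL261 level of Hapln1 rests on a few reads per library, at 0.144 to 0.299 CPM. Has2, Hapln1, Fbln1, Fbn1, Fbn2, Tnfaip6 and Tnr were picked out after their values were seen.

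**Figure D5:**
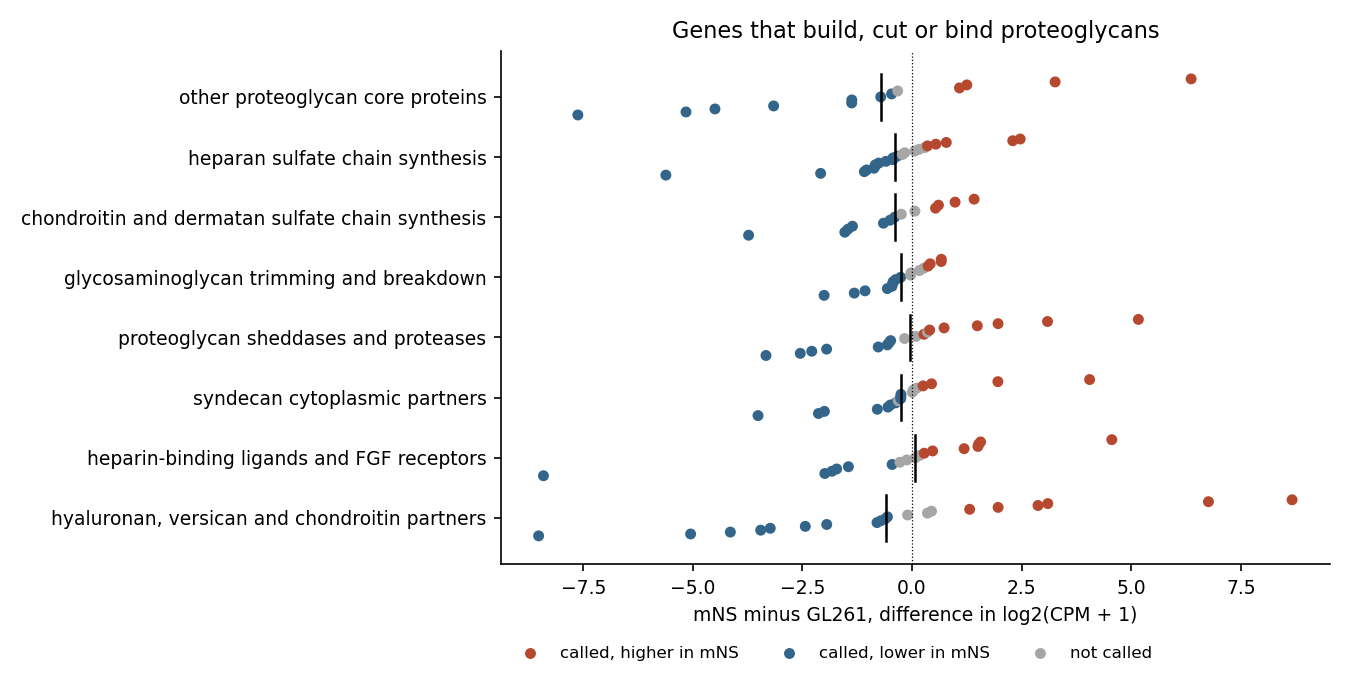
Difference between mNS and GL261 on the log2(CPM + 1) scale (x axis) for every tested gene of 8 lists around the proteoglycans, one row per list; points are genes, coloured by the limma call, and black lines list medians. Every list holds called genes on both sides of 0, and the medians run from -0.71 to 0.08.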

How the data were processed

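RNA was sequenced from 3 mNS and 3 GL261 libraries, stranded and depleted of ribosomal RNA, per the labels. Tools named in the submitters' processing notes are edgeR 3.4.2, HTSeq 0.5.3p9 and TopHat2 (version 2), with the build mm10. The deposited table holds a normalised signal per gene, CPM with TMM factors by the series text and the name of the file; columns sum to 968335 to 1037864. Low values were whole multiples of the worth of 1 read, and 100% of values came out whole within 0.001 reads, which gave the depths. How genes were filtered before deposit is not stated in those sources. The genes, lists and tests were chosen with earlier results of these data known.

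For the main test, log2(CPM + 1) values of 12006 genes entered limma 3.58.1 (R 4.3.3), with a mean-variance trend and two-sided p; 145 genes lay below a mean of 1 CPM. Count tests on the recovered reads were alternatives: 7651 genes were called by quasi-likelihood and 7702 by the exact test of edgeR 4.0.16, and 7353 by DESeq2 1.42.0. The tests were also run on simulated counts in which only a small share of genes was changed. That run does not speak to error rates where most genes are called, as here. From each list, up to 4 called genes with the largest differences, no overlap between groups and a mean of at least 5 CPM in the higher group were to be named. Exon lengths and overlaps come from GENCODE M21 (GRCm38), promoters from RefSeq. Protein sequences were not used here. Tables and plots were made in Python 3.11.15 (matplotlib 3.10.9, scipy 1.17.1, numpy 2.4.6, pandas 2.3.3).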

Additional observations from a re-analysis of the deposited data

How the results depend on the processing

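Of 20 alternatives, Vcan, Sdc4, Gpc1 and Cspg5 kept their direction and call under each. Sdc2, Sdc3 and Gpc6 lost theirs under one, the test against a 2-fold change, which asks for a larger effect. Sdc1, not called under any, changed sign under median centring (-0.013) and when single libraries were left out (-0.071 to 0.105, adjusted p of at least 0.243 under any alternative). Against a 2-fold change, calls were 793 higher and 621 lower over all genes. With the higher count first, calls were 2 and 2 among the proteoglycans and 2 and 5 among other core proteins. They were 2 and 2 in heparan and 1 and 4 in chondroitin sulfate synthesis, 0 and 2 in breakdown, and 3 and 4 among sheddases. Tail partners gave 2 and 3, heparin-binding genes 2 and 5, and versican partners 5 and 7. In the main test with a mean of at least 10 CPM, where fewer genes were tested, 3 versican partners were called higher and 10 lower. Shares kept their direction. A common column sum gave 4456 higher and 3198 lower calls, 58.2% of calls higher against 50.1%; each proteoglycan call held. No paired analysis was possible because the labels give no replicate numbers shared by the groups. Depth limits Cspg5 in GL261, at 20 to 26 reads per library.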
